A study of Mus musculus with 35 samples.

Results

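The comparison concerned LT-HSCs (long-term haematopoietic stem cells), which sustain all blood lineages by self-renewal, that had lost either 1 or both alleles of Ezh2 and carried no JAK2V617F. Its members were chosen by genotype label alone, 4 libraries labelled SclCre; Ezh2 -/- (Ezh2-null) against 7 labelled SclCre; Ezh2 +/- (Ezh2-heterozygous), which made 11 of the 35 libraries of the series. All 11 came from mice carrying SclCre, a Cre recombinase driven from the Scl locus, which is active in blood stem and progenitor cells and in some endothelium. The 4 control libraries had the same SclCre and intact Ezh2. The comparison asks what loss of the remaining allele did to stem-cell RNA when JAK2 was not mutated. A further 14 libraries carried SclCre and JAK2V617F (JAK2-VF), the activating kinase mutation of myeloproliferative neoplasms, with Ezh2 +/- (8 libraries) or Ezh2 -/- (6 libraries), and served to test whether the effect differed with JAK2-VF. The labels do not give age, any inducing agent or the animal behind each library. The p-values thus reflect only how far these libraries spread, which may be technical.

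Ezh2 is the main catalytic subunit of Polycomb repressive complex 2 (PRC2), which methylates lysine 27 of histone H3 and thereby helps to keep developmental and lineage genes silent. The complex is built on Suz12 and Eed, its accessory subunits such as Mtf2, Phf19 and Jarid2 help to bring it to chromatin, and Ezh1 is the alternative catalytic subunit. PRC1 complexes, with Bmi1 and the chromobox proteins, bind the mark or act beside it. In blood stem cells Ezh2 is known as a regulator of self-renewal and lineage choice, and EZH2 is recurrently inactivated in human myeloid neoplasms.

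Each library was made from 1000 sorted cells. Total gene counts were 13.55 to 34.17 M (mega) in the Ezh2-heterozygous and 21.75 to 32.65 M in the Ezh2-null libraries, against 13.6 to 48.6 M over the series. The Ezh2-heterozygous group held 3 females and 4 males, with 3 libraries in batch 1 and 4 in batch 2. The Ezh2-null group held 1 female and 3 males, with 1 library in batch 1 and 3 in batch 2. The 4 controls were female. Levels are given in CPM, counts scaled to 1 M per library after TMM normalisation, and log2 changes are Ezh2-null over Ezh2-heterozygous, ± SE, from a fit with terms for group, batch and sex. All 10 defining LT-HSC markers were present in all 11 libraries. Procr, the stem-cell surface receptor EPCR, lay between 143.3 and 274.3 CPM, Hlf, a stem-cell transcription factor gene, between 409.0 and 694.4 CPM, and Hoxb5, the lowest of the markers, between 17.04 and 44.04 CPM.

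The genotype labels were first checked on a part of Ezh2 that the files count on its own. Its length, 178 bases, equals that of exons 16 and 17 of the transcript Ezh2-201 together (96 and 82 bases), the only adjacent pair of that length there. The pair is coding, and its length leaves a remainder of 1 on division by 3, so that a transcript without it would be out of frame. These sequences are shown because the check of every library rests on them. They come from GENCODE M21 (GRCm38), whereas the counts were made on mm9, and the match rests on length alone.
Ezh2 exon 16: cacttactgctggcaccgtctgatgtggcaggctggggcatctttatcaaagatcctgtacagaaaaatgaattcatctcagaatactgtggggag
Ezh2 exon 17: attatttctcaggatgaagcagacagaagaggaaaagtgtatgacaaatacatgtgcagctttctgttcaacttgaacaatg

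Ezh2-null libraries held almost no counts in this part. It had 0 of 618 Ezh2 counts in batch 1 replicate 1, which allows a share of up to 0.485%, 0 of 759 in batch 2 replicate 1 (up to 0.395%) and 0 of 589 in batch 2 replicate 3 (up to 0.509%). In batch 2 replicate 2 the part held 3 of 627 counts, or 0.478% (Wilson 95% interval 0.163 to 1.397%). The mean share was 0.12 ± 0.239% in Ezh2-null (SD, n = 4), 4.607 ± 3.634% in Ezh2-heterozygous (n = 7) and 7.28 ± 1.113% in control libraries (n = 4). The mean of Ezh2-null minus Ezh2-heterozygous libraries was -4.488 percentage points (exact two-sided permutation p = 0.0303, where the smallest possible is 0.00606). Within batch 2 the difference was -3.365 points, with the groups apart, at an exact permutation p of 0.0571, the smallest that 3 against 4 libraries allow. In batch 1 the Ezh2-null group is a single library.

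The 7 libraries labelled heterozygous were not alike. The 4 of batch 2 held 1.738, 4.789, 1.774 and 5.797%, all above the 3 Ezh2-null libraries of that batch. In batch 1, replicates 1 and 2 held 9.497% (Wilson 95% interval 7.746 to 11.595%) and 8.657% (7.072 to 10.556%), above the batch 1 controls at 7.037 and 7.343%, so that no loss was seen in them. In the 8 JAK2-VF libraries labelled Ezh2 +/- the share was 4.077 to 8.495%, overlapping the 4 controls at 6.02 to 8.718%. A share near the controls was thus not confined to batch 1 replicates 1 and 2. The library labelled heterozygous batch 1 replicate 3 had 0 of 831 counts (up to 0.361%), as low as the Ezh2-null libraries, and without it the exact permutation p was 0.00952, the smallest possible there. Replicate 1, labelled male, held 394.15 CPM of Xist, the RNA of the inactive X chromosome, whereas no other male exceeded 14.75 CPM. All libraries entered the tests under their labels. Values without the doubted libraries (batch 1 replicates 1 and 3), or without all 3 heterozygous libraries of batch 1, are given beside a part of the results only.

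**Figure D1:**
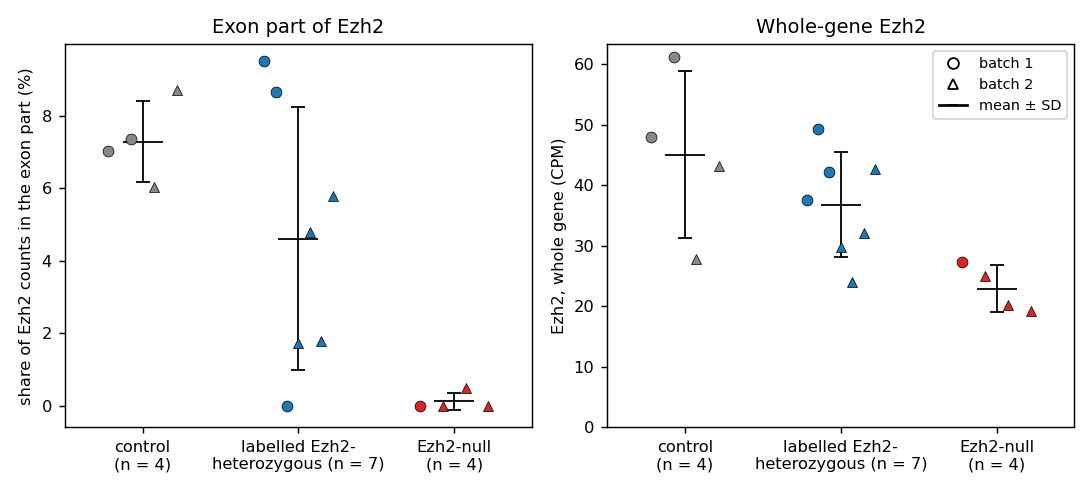
Share of Ezh2 counts that lie in the separately counted exon part (left, %) and whole-gene Ezh2 (right, CPM), 1 point per library, circles for batch 1 and triangles for batch 2, with the mean and SD of each group. The 4 Ezh2-null libraries sit at 0 to 0.478% on the left, and the libraries labelled heterozygous spread from 0 to 9.497%.

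Whole-gene Ezh2 RNA, which still includes transcript outside the counted part, overlapped between the groups. It was 27.32, 24.96, 20.22 and 19.21 CPM in the Ezh2-null libraries and 24.02 to 49.37 CPM (median 37.58) in the Ezh2-heterozygous ones. The lowest heterozygous library lay below 2 of the 4 Ezh2-null libraries, and controls spanned 27.79 to 61.26 CPM. The log2 value was -0.62 ± 0.22 (unadjusted p = 0.00756), which did not pass over all genes (edgeR adjusted p = 0.825).

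No gene passed the threshold between Ezh2-null and Ezh2-heterozygous stem cells. By edgeR's quasi-likelihood test 0 of 14945 genes tested had an adjusted p under 0.05 (percent called 0), and the smallest adjusted p was 0.166. At an unadjusted p under 0.05 there were 793 genes (5.31% of those tested), 378 with positive (2.53%) and 415 with negative values (2.78%). Without the doubted heterozygous libraries there were 985 of 14912 genes, and without the 3 heterozygous libraries of batch 1 there were 875 of 14941, with 0 called by edgeR in both fits. A fit to the 11 compared libraries alone had 346 of 13645 genes, 0 called and a smallest edgeR adjusted p of 0.788. With the controls added there were 473 of 14011 genes, 0 called and a smallest edgeR adjusted p of 0.977. The p-values and SEs of single genes below come from the fit to all 35 libraries, unless another is named. By limma-voom 0 genes passed as well, whereas the DESeq2 Wald test called 87, with 26 higher and 61 lower. Among the genes named below, the 87 hold Gas2l3, Exosc1, Socs2, Coro2a, Plxdc2, Pik3cd, Ak1, Sirt7, Chst2, Veph1, Ncam2, Ankrd24, Mmp9 and Mmp8 on the lower side. On the higher side they hold Rabgap1l, Cd69, Otulinl, Grtp1, Mei4, Dnajc6, Jchain and Mtf2. Over all genes tested the median log2 value was -0.01, with 7207 positive. Libraries of the groups did not overlap for 55 genes (0.368%), with every Ezh2-null library above every heterozygous one for 36 (0.241%) and below for 19 (0.127%). The genes below are therefore described by their values, and none is called changed by the edgeR test.

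**Figure D2:**
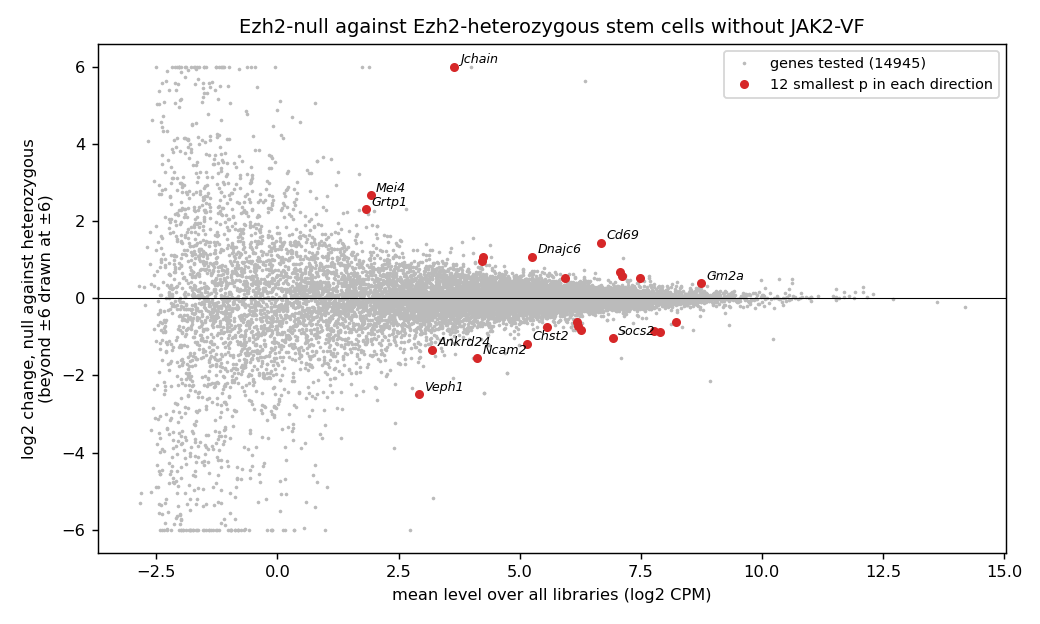
Log2 change of Ezh2-null against Ezh2-heterozygous cells (vertical axis, beyond 6 drawn at the edge) by mean log2 CPM over all libraries (horizontal axis), 1 grey point per gene tested. Red points are the 12 genes of smallest p in each direction whose mean log2 CPM reached 1, a part of them named, and none passed the adjusted threshold.

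The smallest p-value of the comparison belonged to Gas2l3, which encodes a cytoskeletal protein of dividing cells that links actin and microtubules. It held 76.98, 99.56, 53.15 and 110.2 CPM in the Ezh2-null libraries, against 107.8 to 233.9 CPM (median 146.9) in the heterozygous ones. A single Ezh2-null library reached into the heterozygous range. The 4 controls, at 98.7 to 185.5 CPM, overlapped both groups, and the lowest of them lay below every heterozygous library. The log2 value was -0.85 ± 0.17 (edgeR adjusted p = 0.166). It passed by edgeR without heterozygous batch 2 replicate 1 (adjusted p = 0.0355), the lowest heterozygous library, whose omission favours the difference. In 26 of 28 alternatives Gas2l3 did not pass, and its log2 value was -1.013 to -0.487 over the 28.

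Exosc1, a cap subunit gene of the RNA exosome, which degrades and trims RNA, separated the groups with little spread. Ezh2-null libraries held 49.12, 55.95, 46.35 and 48.6 CPM and heterozygous ones 64.09 to 80.68 CPM (median 78.82). No library overlapped, and the 4 controls, at 62.42 to 89.31 CPM, also lay above every Ezh2-null library. Its log2 value of -0.60 ± 0.13 (edgeR adjusted p = 0.166) was -0.56 within batch 1 and -0.66 within batch 2.

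Socs2, a feedback inhibitor gene of cytokine and growth hormone signalling through JAK and STAT, was lower in every Ezh2-null library than in any heterozygous one. The Ezh2-null values were 29.36, 32.43, 18.16 and 35.06 CPM and the heterozygous ones 38.33 to 119.6 CPM (median 49.38). The controls, at 24.21 to 54.37 CPM, overlapped both groups, and the highest heterozygous library, batch 2 replicate 2, stood far above the other 6. For Socs2 the log2 value was -1.04 ± 0.22 (edgeR adjusted p = 0.166).

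Coro2a, a coronin gene of the actin cytoskeleton, held 50.31, 119.3, 72.31 and 60.54 CPM in Ezh2-null and 96.95 to 183.4 CPM (median 145.5) in heterozygous libraries. Controls were higher still, at 131.0 to 255.2 CPM, so the medians ran downwards from control through heterozygous to null. The log2 value was -0.86 ± 0.19 (edgeR adjusted p = 0.182). It was -1.52 within batch 1 and -0.58 within batch 2. Without the Ezh2-null library batch 2 replicate 1, the only one within the heterozygous range, it was -1.16 and passed (edgeR adjusted p = 0.0153). Leaving out that library favours the difference. In 26 of 28 alternatives Coro2a did not pass, and its log2 value was -1.524 to -0.357 over the 28.

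Among the other genes of smallest p with negative values, Plxdc2, a transmembrane receptor gene, was at 43.68 to 57.7 CPM in Ezh2-null and 63.78 to 109.4 CPM in heterozygous libraries, without overlap (log2 -0.83 ± 0.20). Pik3cd, the leukocyte PI3-kinase catalytic subunit p110-delta, had a log2 value of -0.60 ± 0.15, and Ak1, which interconverts adenine nucleotides, of -0.71 ± 0.18. Sirt7, a nuclear deacetylase gene of the sirtuin family, was at -0.74 ± 0.19, and Chst2, a sulfotransferase gene of glycan synthesis, at -1.18 ± 0.32. Veph1 (-2.49 ± 0.64), the neural adhesion gene Ncam2 (-1.54 ± 0.40) and Ankrd24 (-1.33 ± 0.34) were low throughout, with at most 29.08 CPM in any of the 11 libraries. EdgeR adjusted p-values of these 8 genes were 0.354 to 0.517.

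**Figure D3:**
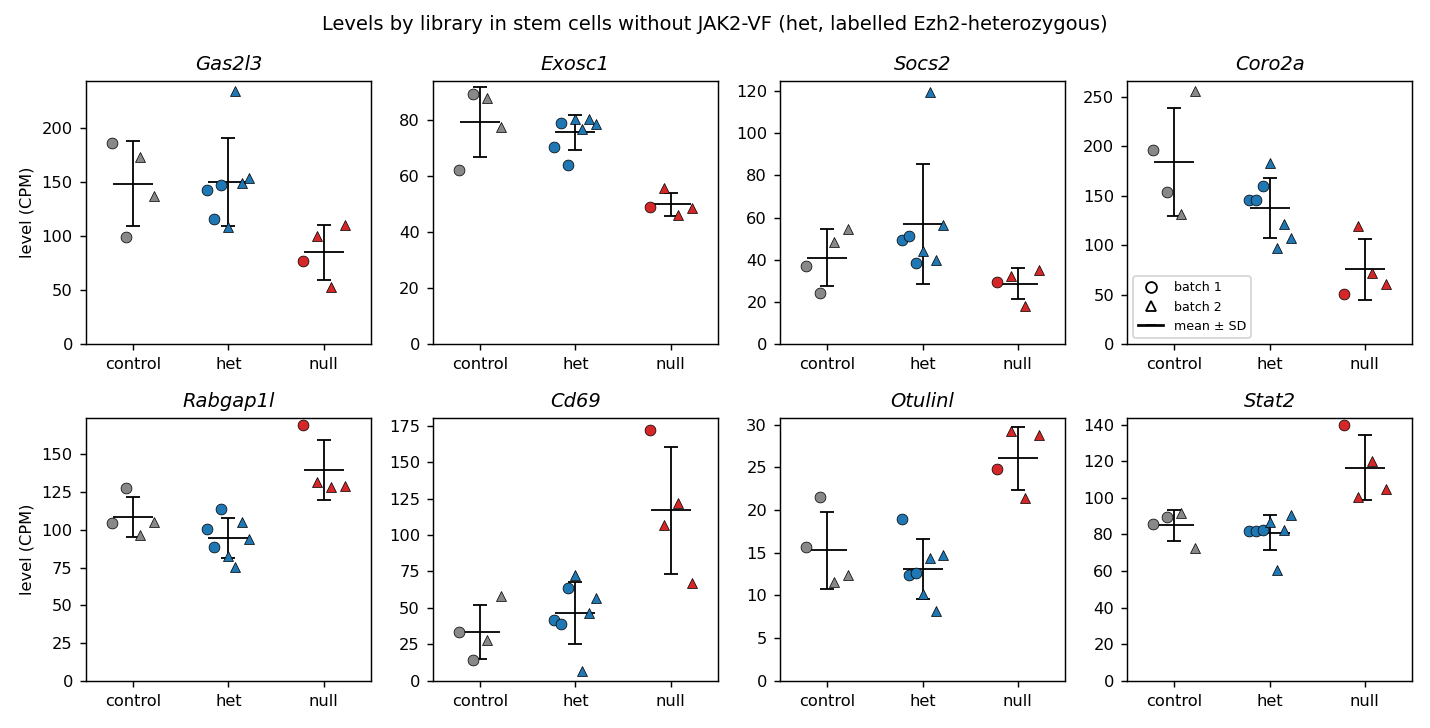
Levels of 8 genes (CPM) in the 4 control, 7 Ezh2-heterozygous (het) and 4 Ezh2-null libraries, 1 point per library, circles for batch 1 and triangles for batch 2, with mean and SD. The null points lie apart from all het points for Exosc1, Socs2, Rabgap1l, Otulinl and Stat2, and overlap them for Gas2l3, Coro2a and Cd69.

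Of the genes with positive values, Rabgap1l, a GTPase-activating protein gene of membrane traffic, separated the groups. Ezh2-null libraries held 169.6, 132.0, 128.2 and 128.8 CPM and heterozygous ones 75.71 to 113.9 CPM (median 94.29). Every Ezh2-null library also lay above the 4 controls, at 96.95 to 127.7 CPM. Its log2 value was 0.68 ± 0.16 (edgeR adjusted p = 0.305).

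Cd69, the early activation marker of leukocytes, held 172.1, 106.7, 121.9 and 67.16 CPM in Ezh2-null and 7.104 to 72.41 CPM (median 46.75) in heterozygous libraries. Of the 4 Ezh2-null libraries 3 lay above all heterozygous ones, and all 4 lay above the controls, at 14.11 to 58.09 CPM. Its log2 value was 1.44 ± 0.35 (edgeR adjusted p = 0.354), with 1.96 within batch 1 and 1.20 within batch 2.

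Otulinl, a relative of a deubiquitinase gene, held 24.76, 29.24, 21.38 and 28.73 CPM in Ezh2-null and 8.124 to 18.98 CPM (median 12.63) in heterozygous libraries. The groups did not overlap, and the highest control, at 21.52 CPM, reached just into the Ezh2-null range. The log2 value was 1.08 ± 0.27 (edgeR adjusted p = 0.37).

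Another set of these genes was low in heterozygous libraries and near the control level in Ezh2-null ones. Grtp1, a growth hormone regulated TBC-domain gene, held 6.809, 8.288, 8.741 and 2.381 CPM in Ezh2-null, 0.2456 to 3.702 CPM (median 1.283) in heterozygous and 5.391 to 7.659 CPM in control libraries. Only the Ezh2-null library batch 2 replicate 3 overlapped the heterozygous ones, and the log2 value was 2.31 ± 0.49 (edgeR adjusted p = 0.166). Mei4, a gene of meiotic recombination, held 2.0 to 5.129 CPM in Ezh2-null, 0.04912 to 2.062 CPM in heterozygous and 1.461 to 5.204 CPM in control libraries (log2 2.68 ± 0.69, edgeR adjusted p = 0.386). Dnajc6, a co-chaperone gene of clathrin uncoating, held 21.89 to 31.8 CPM in Ezh2-null, 6.36 to 32 CPM in heterozygous and 18.47 to 41.41 CPM in control libraries (log2 1.07 ± 0.27, edgeR adjusted p = 0.37). For these 3 genes the order of the medians was thus not that of the number of intact alleles.

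The lysosomal activator gene Gm2a had a log2 value of 0.39 ± 0.11, Cacybp, a ubiquitin ligase partner, of 0.54 ± 0.16, Ralgps2, an exchange factor gene, of 0.54 ± 0.16 and Plcg1, the signalling phospholipase C-gamma, of 0.98 ± 0.30. Their edgeR adjusted p was 0.674 each. Jchain, which joins secreted immunoglobulins and marks plasma cells, held 5.438, 1.776, 129.4 and 0.5871 CPM in Ezh2-null and 0.0 to 0.6089 CPM in heterozygous libraries. A single Ezh2-null library held nearly all of its counts, and a control library reached 160.0 CPM, so its log2 value of 7.52 ± 2.18 (edgeR adjusted p = 0.674) rests on few libraries. B-cell markers, summed over the list, were at 66.77 to 101.1 CPM in Ezh2-null and 56.79 to 110.9 CPM in heterozygous libraries. Of the 10 B-cell markers tested only 1 reached a mean log2 CPM of 1, so the sum says little of the others. The part of plasma cells or B cells in the value for Jchain was not tested.

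PRC2 subunit genes had values on both sides of 0. Of 11 members tested 0 were called, 2 had positive values and the median log2 value was -0.09. Mtf2, the accessory subunit that binds CpG-rich DNA, held 161.3, 150.8, 115.8 and 173.1 CPM in Ezh2-null and 63.28 to 134.8 CPM (median 106.9) in heterozygous libraries. Of the 4 Ezh2-null libraries 3 lay above every heterozygous one, with a log2 value of 0.58 ± 0.14 (edgeR adjusted p = 0.354). Ezh1, at 95.24 to 149.3 CPM in Ezh2-null and 108.7 to 163.9 CPM in heterozygous libraries, had a log2 value of -0.08 ± 0.17, which turned positive (0.05) without the 3 heterozygous libraries of batch 1. The core subunits Eed (-0.21 ± 0.19) and Suz12 (-0.0044 ± 0.17) and the accessory subunit Jarid2 (-0.16 ± 0.17) overlapped between the groups. Of 20 PRC1 genes 14 had positive values, with a median of 0.13. Bmi1, the PRC1 gene needed for stem-cell self-renewal, was at 34.45 to 59.56 CPM in Ezh2-null and 14.32 to 83.26 CPM in heterozygous libraries (log2 0.56 ± 0.23, edgeR adjusted p = 0.905).

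Known Polycomb targets were mostly too low to test. Of 56 developmental regulators known as PRC2 targets, 10 passed the low-count filter and 0 of these were called. Of the 10, 7 had positive values, with a median of 0.82. It was -0.15 over the 3 whose mean log2 CPM reached 1, and -0.49 to 1.60 over 28 alternatives. Cdkn2a, the Ink4-Arf tumour suppressor locus and a classic Polycomb target, was not tested, with 0 CPM in 3 Ezh2-null libraries and 0.5748 CPM in the fourth. Its relative Cdkn2c, a CDK inhibitor gene, held 48.68, 18.09, 17.06 and 28.02 CPM in Ezh2-null and 4.195 to 42.14 CPM in heterozygous libraries (log2 0.84 ± 0.32, edgeR adjusted p = 0.905). Of 18 Hox A and B genes tested 6 had positive values, with a median of -0.22, and of 13 fetal and oncofetal genes 5, with a median of -0.09. Lin28b, which binds RNA and marks fetal haematopoiesis, held 1.68, 3.092, 0.6773 and 0.5545 CPM in Ezh2-null and 0.0 to 2.851 CPM in heterozygous libraries. Hmga1, a chromatin protein gene of the same list, had a log2 value of -0.56 ± 0.17 (edgeR adjusted p = 0.674).

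Stem-cell genes were balanced. Of 46 HSC signature genes 22 had positive values, with a median log2 value of -0.01, the same as over all genes, and 1 had an unadjusted p under 0.05 in each direction. Slamf1, the stem-cell sort marker CD150, was at 52.89 to 59.06 CPM in Ezh2-null and 41.68 to 120.6 CPM in heterozygous libraries (log2 -0.46 ± 0.20). Ly6a, the sort marker Sca-1, was at 249.7 to 344.8 CPM against 177.5 to 332.5 CPM (log2 0.35 ± 0.15), with edgeR adjusted p = 0.905 for both genes. Ndn, a growth suppressor gene of quiescent stem cells, was at 147.8 to 191.3 CPM against 109.8 to 177.7 CPM (log2 0.22 ± 0.13).

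Interferon-stimulated genes leaned to positive values without any call. Of 43 genes 39 were positive, with a median of 0.24 against -0.01 over all genes. At an unadjusted p under 0.05 there were 6 of 43, all positive, where 2.53% of all genes tested were. Stat2, the transcription factor gene that carries the type I interferon signal, held 139.8, 100.7, 120.1 and 104.7 CPM in Ezh2-null and 60.42 to 90.75 CPM (median 82.52) in heterozygous libraries. The groups did not overlap, and every Ezh2-null library lay above the controls, at 72.56 to 91.88 CPM, with a log2 value of 0.55 ± 0.17 (edgeR adjusted p = 0.674). Oasl1, a regulator gene of the antiviral response, held 51.91, 22.89, 15.38 and 14.71 CPM against 3.695 to 22.11 CPM (log2 1.12 ± 0.37, edgeR adjusted p = 0.74). Ifi27, a mitochondrial interferon-induced gene, held 282.0, 187.7, 179.2 and 207.7 CPM against 101.7 to 227.6 CPM (log2 0.52 ± 0.17, edgeR adjusted p = 0.747).

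Much of this shift lay in 1 library. The list's level, its mean log2(CPM + 1), was 6.747, 6.504, 6.397 and 6.294 in the Ezh2-null libraries and 5.82 to 6.56 in the heterozygous ones. The highest was the Ezh2-null library batch 1 replicate 1, and without it the median log2 value of the list was 0.08. It was 0.62 within batch 1, where that library stands alone against 3, and 0.11 within batch 2. Among the heterozygous libraries the highest level, 6.558, belonged to the one without counts in the exon part, and without both doubted libraries the median was 0.32.

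The interferon-inducible GTPases, which attack the compartments of intracellular microbes, had a median of 0.18, with 15 of 18 positive. That median was 0.65 within batch 1, 0.07 within batch 2 and 0.12 without the Ezh2-null library batch 1 replicate 1. Gbp2, a guanylate-binding protein gene, held 189.4, 169.5, 179.2 and 148.4 CPM in Ezh2-null and 88.22 to 170.2 CPM (median 131.4) in heterozygous libraries. Of its 4 Ezh2-null libraries 2 lay above every heterozygous one (log2 0.47 ± 0.21, edgeR adjusted p = 0.905). Gbp3 and Gbp7 were at 108.2 to 154.3 and 399.9 to 619.0 CPM in Ezh2-null libraries against 84.29 to 139.2 and 388.6 to 657.2 CPM (log2 0.15 ± 0.15 and 0.18 ± 0.12).

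The promoters of these genes carry a shared element in part. The interferon-stimulated response element was searched as GAAA, any 2 bases and GAAA again, on both strands in RefSeq promoters (GRCm38.p6) of 300 bases, 250 before to 50 after the start. It was found in 1079 of 27025 genes (3.99%), in 14 of the 31 interferon-stimulated genes with an entry (45.16%) and in 9 of the 10 GTPase genes with one (90.0%). A match describes these letters only and does not show binding. The stretches of Stat2, chr10:128270248-128270347, and Gbp2, chr3:142620559-142620658, both on the + strand, are shown because these genes had the smallest p of their lists. Capitals mark the match, which lies on the opposite strand and begins, at its upstream end, 222 bases before the start of Stat2 and 59 bases before that of Gbp2.
Stat2 promoter: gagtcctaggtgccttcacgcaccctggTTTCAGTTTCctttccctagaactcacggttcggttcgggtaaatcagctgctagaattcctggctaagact
Gbp2 promoter: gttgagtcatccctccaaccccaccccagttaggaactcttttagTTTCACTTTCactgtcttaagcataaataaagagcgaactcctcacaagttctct

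Antigen presentation genes had positive values in nearly every case. For MHC class I these were 14 of 15 genes, with a median of 0.13. Of the 15, 1 had an unadjusted edgeR p under 0.05, with a positive value, as had 2.53% of all genes tested. H2-T23, a non-classical class I gene with the smallest p of the list, was at 764.7 to 936.6 CPM in Ezh2-null and 549.0 to 938.0 CPM in heterozygous libraries (log2 0.20 ± 0.09). Tap1, a peptide transporter gene outside the rule for named genes and chosen after its values were seen, held 251.4, 263.0, 270.7 and 255.7 CPM against 178.1 to 246.8 CPM, without overlap (log2 0.21 ± 0.14, edgeR adjusted p = 0.981). All 10 MHC class II genes were positive, with a median of 0.42, but 0 of them had an unadjusted edgeR p under 0.05. Cd74, the invariant chain of class II, held 807.9, 872.1, 1049.0 and 985.5 CPM in Ezh2-null and 371.8 to 844.8 CPM (median 566.4) in heterozygous libraries. Of the 4 Ezh2-null libraries 3 lay above every heterozygous one, with a log2 value of 0.66 ± 0.36 (edgeR adjusted p = 0.959).

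**Figure D4:**
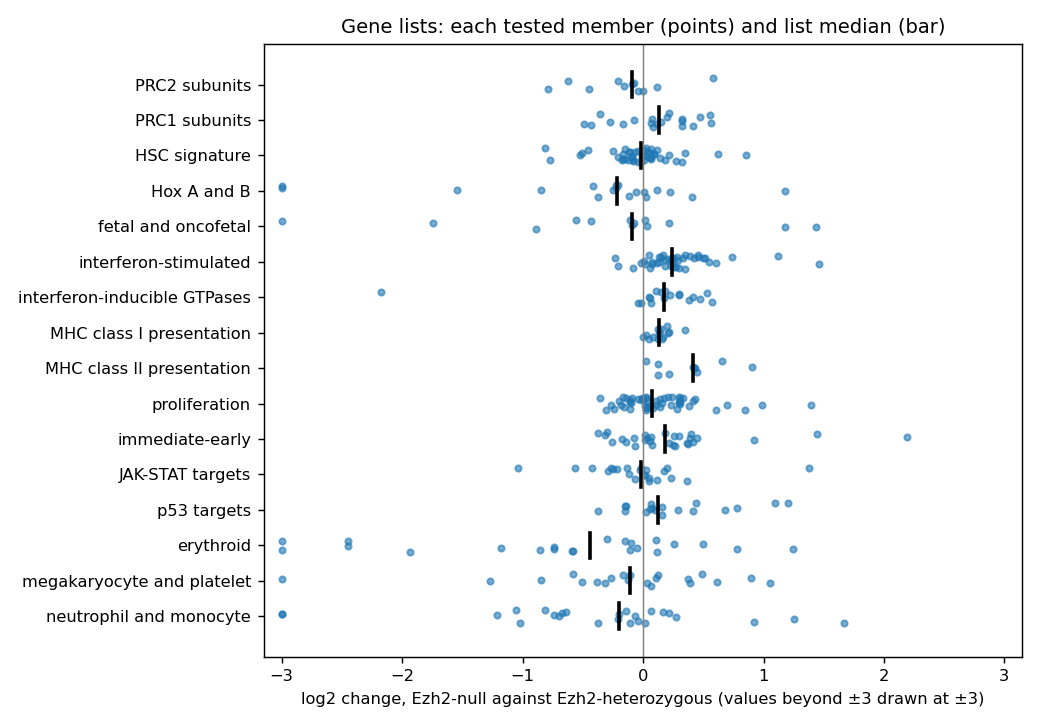
Log2 change of Ezh2-null against Ezh2-heterozygous cells for the tested members of 16 gene lists, 1 point per gene (values beyond 3 drawn at 3), with the list median as a bar. Bars run from -0.44 for erythroid markers to 0.42 for MHC class II genes, and no point passed the adjusted threshold.

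Growth and stress lists showed small medians. Of 52 proliferation genes 34 were positive (median 0.07), and E2f8, a repressor gene of the cell cycle, was at 4.58 to 25.36 CPM in Ezh2-null against 1.15 to 9.602 CPM (log2 1.39 ± 0.51, edgeR adjusted p = 0.869). Of 29 immediate-early genes, which also respond to cell handling, 21 were positive (median 0.18), with Ier5 at 25.78, 25.72, 20.22 and 18.66 CPM against 4.988 to 33.21 CPM (log2 0.92 ± 0.33) and Dusp2, a MAP kinase phosphatase gene, at 0.45 ± 0.21. Of 18 p53 target genes 14 were positive (median 0.13), among them Trp53inp1, an autophagy and stress gene, with a log2 value of 0.68 ± 0.29. Of 23 JAK-STAT target genes 11 were positive (median -0.02). Beside Socs2 they included Ccnd2, a G1 cyclin gene, at 1233.0, 736.8, 788.0 and 784.0 CPM in Ezh2-null against 812.4 to 1535.0 CPM (log2 -0.25 ± 0.10), and Bcl6, a transcriptional repressor gene. Bcl6 held 10.66, 26.25, 13.55 and 18.13 CPM against 1.082 to 10.27 CPM, narrowly without overlap (log2 1.38 ± 0.58, edgeR adjusted p = 0.905). Its controls, at 3.238 to 18.15 CPM, overlapped both groups. Socs2 and Bcl6, both linked to STAT5 signalling, thus had values of opposite sign, which need not be a disagreement. The list pools targets whether the signal raises or lowers them, so its count and median do not measure that signal.

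Markers of mature blood cells varied more between libraries than between the groups. In such bulk samples fewer cells of a type and less RNA per cell cannot be told apart. Of 22 erythroid markers 6 were positive, with a median of -0.44 that ranged from -1.03 to -0.14 over 28 alternatives, and Slc4a1, the red-cell anion exchanger gene, was at 0.0 to 1.967 CPM in Ezh2-null and 0.0 to 22.24 CPM in heterozygous libraries (edgeR adjusted p = 0.905). The summed erythroid level was 4810 to 6577 CPM in Ezh2-null and 4589 to 6497 CPM in heterozygous libraries, with 0 to 5 of the 22 markers at 0 in a library of either group. Most of that sum was Car2, at 4505 to 6298 CPM in Ezh2-null and 4193 to 5929 CPM in heterozygous libraries. The sum thus says little of the other markers. Hbb-bs, a globin gene, was at 2.368 to 84.7 CPM in Ezh2-null and 3.92 to 204.0 CPM in heterozygous libraries. Of 25 neutrophil and monocyte markers 8 were positive (median -0.20), with a median of -2.22 within batch 1 and 0.15 within batch 2. Their summed level was 1802 to 4262 CPM in Ezh2-null and 904.7 to 5702 CPM in heterozygous libraries, with 0 to 6 of 25 at 0. The neutrophil protease genes Mmp9 and Mmp8 were nearly absent from Ezh2-null libraries, at no more than 0.6773 and 0.06451 CPM, against 0.1425 to 15.96 and 0.0 to 7.024 CPM in heterozygous ones (edgeR adjusted p = 0.712 and 0.806). The part of mature cells in the values of the other genes was not tested.

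The effect of losing the remaining allele was then set against the same loss in JAK2-VF cells, in libraries that the 2 contrasts do not share. By edgeR's test of the difference of effects, 5 of 14945 genes passed (0.0335%). They were Socs2, Hbb-bt and its copy Hbb-b2, Igf2 and Glul, and 946 genes had an unadjusted p under 0.05. By limma-voom 7 genes passed and by DESeq2 105.

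Socs2 lay on opposite sides in the 2 backgrounds. Without JAK2-VF its log2 value was -1.04 ± 0.22, and with JAK2-VF it was 0.50 ± 0.18, at 121.0 to 215.8 CPM (median 162.2) in JAK2-VF heterozygous and 109.6 to 311.8 CPM (median 240.6) in JAK2-VF Ezh2-null libraries. All 14 JAK2-VF libraries except the lowest Ezh2-null one lay above the highest library without JAK2-VF, which held 119.6 CPM. The difference of effects was -1.54 ± 0.29 (edgeR adjusted p = 0.0304). It no longer passed without any 1 of the 4 Ezh2-null libraries (adjusted p = 0.0603 to 0.115), nor without the doubted heterozygous libraries (adjusted p = 0.0515) or the 3 of batch 1 (adjusted p = 0.0545). In 26 alternatives the difference for Socs2 was -1.78 to -0.98.

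For the other genes of this test the larger of the 2 log2 values was the one with JAK2-VF. Hbb-bt, an adult beta-globin gene whose counts are identical to those of Hbb-b2 and cannot be assigned to either, held 18.92, 21.35, 47.57 and 29 CPM in Ezh2-null and 18.61 to 92.2 CPM (median 35.25) in heterozygous libraries. These overlapped throughout (log2 -0.74 ± 0.45, edgeR adjusted p = 0.98). With JAK2-VF it was at 16.45 to 56.01 CPM in heterozygous and 66.36 to 359.4 CPM in Ezh2-null libraries, and the difference of effects was -3.67 ± 0.61 (edgeR adjusted p = 0.01).

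Igf2, an imprinted fetal growth factor gene, held 7.428, 7.532, 5.548 and 4.207 CPM in Ezh2-null and 0.0 to 11.9 CPM (median 6.563) in heterozygous libraries. It was kept in all 4 Ezh2-null libraries, near the controls at 5.822 to 8.284 CPM, and its fitted log2 value of 0.02 ± 0.90 changed sign in 12 of 28 alternatives. In the 6 JAK2-VF Ezh2-null libraries Igf2 had 0 counts, against 0.0 to 4.542 CPM in JAK2-VF heterozygous ones. The difference of effects passed (edgeR adjusted p = 0.0347), but with 1 group at 0 its fitted size is no measure of a fold.

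Glul, the glutamine synthetase gene, held 233.3, 357.9, 265.3 and 309.3 CPM in Ezh2-null and 194.9 to 290.8 CPM (median 248.1) in heterozygous libraries (log2 0.21 ± 0.13). With JAK2-VF it was lower in Ezh2-null libraries, at 94.39 to 159.6 CPM, than in heterozygous ones, at 161.8 to 275.3 CPM. The difference of effects was 0.86 ± 0.17 (edgeR adjusted p = 0.0347). In this test 0 genes passed without Ezh2-null batch 1 replicate 1, batch 2 replicate 1 or batch 2 replicate 3, and 2 passed without batch 2 replicate 2. Over 26 alternatives the difference stayed at -4.06 to -3.22 for Hbb-bt and at 0.71 to 1.11 for Glul. Without the doubted heterozygous libraries Hbb-bt and Hbb-b2 alone passed.

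**Figure D5:**
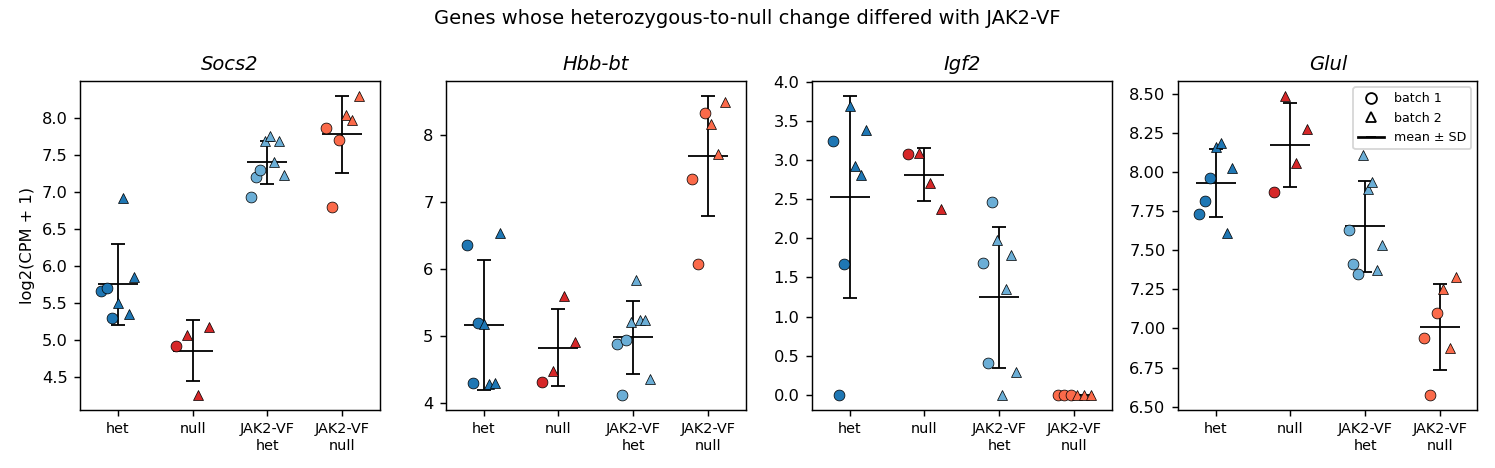
Levels as log2(CPM + 1) of 4 genes in heterozygous (het) and Ezh2-null (null) libraries without and with JAK2-VF, 1 point per library, circles for batch 1 and triangles for batch 2, with mean and SD. Socs2 is lower in null than in het without JAK2-VF, and Igf2 is at 0 in all 6 JAK2-VF null libraries.

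For the lists, the median values with and without JAK2-VF are given side by side. They were 0.24 without and 0.41 with JAK2-VF for interferon-stimulated genes, 0.18 and 0.84 for interferon-inducible GTPases, and 0.42 and -0.28 for MHC class II genes. Fetal and oncofetal genes were at -0.09 and 0.48, immediate-early genes at 0.18 and -0.39, and erythroid markers at -0.44 and 1.02. Of the genes in these lists only Igf2 and the globin copies passed the test of the difference, so no difference was shown for the lists as such.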

How the data were processed

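The authors deposited raw counts per Entrez gene for 35 libraries. STAR and build mm9 were used, per the submitters' processing notes. Versions, the counting tool and strand use are not stated there. If strand was not used, overlapping or antisense genes cannot be told apart. Of 19139 rows, 19138 were genes and 1 was the exon part of Ezh2, at most 0.000935% of a library, kept out of library sizes and tests. Symbols matched for 19075 genes.

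The counts were fitted with the quasi-likelihood test of edgeR 4.0.16 (R 4.3.3, robust empirical Bayes) to the whole series, with group, batch and sex as terms. TMM factors were 0.937 to 1.062, and 14945 genes passed the low-count filter. A Benjamini-Hochberg adjusted p under 0.05 over all genes tested counted as a call. The fit had 27 residual degrees of freedom and a common biological coefficient of variation of 0.554. The script was tested on simulated counts. Intervals of shares (Wilson, 95%) and limits for 0 counts (3 counts) cover counting error only.

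Alternatives were DESeq2 1.42.0 size factors and Wald test, limma 3.58.1 voom, no filter, no batch or sex term, a replicate block, fewer groups, single batches or sexes, and omitted libraries. An edgeR fit without robust empirical Bayes was added after seeing the data. Named genes were the PRC2 subunits, the 12 smallest p in each direction whose mean log2 CPM reached 1 (without Xist, Y-linked and predicted genes or RIKEN clones), up to 3 members of each list, the 5 smallest p of the difference of effects, and genes earlier results pointed to; the text names a part of them. Members and lists were chosen with earlier results of these data known. Other tables used Python 3.11.15.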

Additional observations from a re-analysis of the deposited data

Results flagged for a closer look

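Within single groups, 16 of 118 sets of values tested (13.6%) held a library whose gap to the nearest other was large for the group's range. The rule flags about 1 in 20 only for normally distributed values of a single population. CPM values from both batches need not be such, so the share flagged cannot be compared with chance. Among the 7 heterozygous libraries, batch 2 replicate 2 stood apart for Gas2l3 (233.9 CPM), Socs2 (119.6 CPM), Ak1 (157.6 CPM) and Jchain (0.6089 CPM) on the high side and for Stat2 (60.42 CPM) on the low side. Batch 2 replicate 3 stood apart as lowest for Pik3cd (175.8 CPM) and highest for Ankrd24 (29.08 CPM). Batch 1 replicate 3, the library without counts in the exon part, was highest for Gbp7 (657.2 CPM) and Cdkn2c (42.14 CPM).

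Among the 4 Ezh2-null libraries, batch 1 replicate 1, the only one of its batch, stood apart as highest for Rabgap1l (169.6 CPM), Gbp3 (154.3 CPM) and Ccnd2 (1233 CPM) and as lowest for Hmga1 (17.6 CPM). Batch 2 replicate 2 was highest for Jchain (129.4 CPM), Mmp8 (0.06451 CPM) and the share of Ezh2 counts in the exon part (0.478%).

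The effect of losing the remaining Ezh2 allele differed with JAK2-VF by a test of the difference, on the log2 scale, for Hbb-bt and Hbb-b2 (-3.67 each), Socs2 (-1.54), Glul (0.86) and Igf2 (8.67, with 0 counts in JAK2-VF Ezh2-null libraries).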

How the results depend on the processing

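The count of genes called between Ezh2-null and heterozygous cells was 0 in 25 of 28 alternatives. It was 87 by the DESeq2 Wald test and 0 to 1 when single libraries were left out. The fit without the heterozygous library lacking exon counts is the same as that without heterozygous batch 1 replicate 3. Both entries count among the 28, and among the 26 for the difference of effects. The genes passing the test of the difference of effects, 5 by edgeR, numbered 8 with no low-count filter, 105 by DESeq2, 3 with no batch term, 2 without the doubted heterozygous libraries, 0 in batch 1, batch 2, females or males alone, and 0 to 7 when single libraries were left out. With the replicate number as a block 0 genes were called for the main comparison and 2 for the difference. After group, batch and sex were taken out of log2(CPM + 1), same-numbered Ezh2-null and heterozygous libraries correlated at -0.24, -0.124, -0.225 and 0.001. The highest correlation of each Ezh2-null library with another heterozygous library of its batch was 0.041, 0.031, 0.17 and 0.027. The numbers thus gave no sign of a pairing. The exon share differed by -3.365 points in batch 2 alone (exact permutation p = 0.0571) and by -5.256 to -3.673 points with single libraries left out, where p reached 0.0667 without any 1 Ezh2-null library.

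Counted per gene and alternative, 1536 log2 values of named genes kept their sign and 31 reversed, all of genes not called. The cause was not tested. Ezh1 was at 0.144 in batch 2 alone, 0.002 without the doubted and 0.053 without the batch 1 heterozygous libraries, and -0.152 to 0.05 with single libraries left out. Suz12 was at 0.003 with no filter, 0.096 by limma-voom, 0.099 with the replicate block, 0.011 in males and -0.078 to 0.089 with single libraries left out. In batch 1 alone Ralgps2 (-0.067), Plcg1 (-0.104) and Trp53inp1 (-0.126) reversed, in batch 2 alone Gbp3 (-0.019), and in females alone Jarid2 (0.229) and Cdkn2c (-0.125). Igf2 was at -0.037 with no sex term, -0.001 with no batch term, -0.007 with the compared groups only, -0.009 without JAK2-VF libraries, -0.537 in batch 2, -0.025 in males, -0.134 without the heterozygous library lacking exon counts, -0.428 without those of batch 1, and -0.24 to 0.282 with single libraries left out. Genes of low counts, 4193 in all, were not tested.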
